A study of Mus musculus with 23 samples.

Results

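The respiratory chain genes are the 118 genes of the RNA table whose symbols name a subunit, assembly factor or near copy of a subunit of the oxidative phosphorylation complexes. The symbols begin with Nduf followed by a, b, c, s or v (complex I and its assembly factors), Sdha to Sdhd (complex II), Uqcr (complex III), Cox4 to Cox8 (complex IV) or Atp5 (complex V), or are the mitochondrially encoded mt-Nd, mt-Cytb, mt-Co and mt-Atp genes. They are 118 of 35645 genes in the table, 105 of them encoded in the nucleus and 13 in the mitochondrial genome. The rule itself uses no measured value. The RNA came from 4 populations sorted from mouse liver. DP cells are type 1 innate lymphoid cells (ILC1) that expressed granzyme C and carried its fate map label (GzmC+GzmcFM+). FMSP cells are ILC1 that carried the label without current granzyme C (GzmC-GzmcFM+), and DN cells are ILC1 with neither (GzmC-GzmcFM-). NK cells are natural killer cells positive for an S1pr5 reporter (S1pr5eGFP+). There were 4 DP, 4 FMSP, 3 DN and 4 NK libraries from 6 mice, each from all cells of 1 population of 1 mouse. Neither the number of cells, the age of the mice nor any treatment was given in the sources used here. The fate map label depends on past Gzmc expression and the NK gate on S1pr5 expression. The ATAC-seq data, which measure open chromatin, cover 8 libraries of 50000 cells: ILC1 from liver and from salivary gland, NK cells from liver and from spleen, with 2 libraries each. Their labels give the ILC1 as GzmC+GzmcFM+ and the NK cells as S1pr5eGFP+, while the series design gives a sort on NK1.1, NKp46, CD49a and CD49b, so the gate used is not certain.

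The respiratory chain passes electrons from NADH through complex I, or from succinate through complex II, by way of coenzyme Q to complex III, by cytochrome c to complex IV and on to oxygen. The proton gradient that complexes I, III and IV build drives ATP synthesis by complex V. Complexes I, III, IV and V are assembled from subunits of both genomes, and complex II is wholly nuclear. Their mRNAs come from nuclear transcription by RNA polymerase II and from mitochondrial transcripts that are cut into single mRNAs. Resting lymphocytes rely largely on oxidative phosphorylation, and cytokine-activated NK cells raise both glycolysis and respiration.

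Of the 118 members, 103 passed the filter on low counts, 90 nuclear and all 13 mitochondrially encoded. The 15 members under the filter were 8 genes with pseudogene symbols and the tissue-restricted or copied genes Cox4i2, Cox8b, Cox8c, Cox7b2, Cox6c2, Ndufa11b and Ndufs6b, and 4 of the 15 had no count in any library. By complex, the nuclear members past the filter were 37 subunits of complex I, 8 assembly factors of complex I, 4 subunits of complex II, 8 of complex III, 16 of complex IV and 17 of complex V. The member with the highest mean of each complex, in CPM (counts scaled to the library size by TMM, not corrected for gene length), was Ndufa13 for complex I (182 CPM over the 15 libraries), Sdha for complex II (270 CPM), Uqcrc1 for complex III (327 CPM). It was Cox4i1 for complex IV (410 CPM) and Atp5b, the catalytic beta subunit, for complex V (1023 CPM). Both defining genes were present in every library. mt-Co1, the catalytic subunit of complex IV, had 852 to 4429 CPM, and Cox5a, a nuclear subunit of the same complex, had 169 to 465.5 CPM. Of the paired isoforms, Cox6a2, the isoform of striated muscle, had 1.92 to 6.60 CPM against 196 to 488 CPM for Cox6a1. Cox6b2, Cox7a1 and Ndufa4l2 were at or near 0 CPM in every library except DN of mouse 2 (4.66, 4.21 and 1.90 CPM), with 1 more library, FMSP of mouse 5, at 2.33 CPM for Ndufa4l2.

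Promoters are shown for 4 nuclear members with lower counts in DN than in NK cells once each mouse was its own baseline (Cox6a1, Cox6b1, Cox8a and Uqcr11), for Ndufa4, whose RNA had lower counts in each ILC1 population than in NK cells of the same mice, and for Ndufa9, the complex I subunit with higher counts in DP. Each window runs from 250 bases before to 30 bases after the RefSeq start (GRCm38.p6, the build of mm10), 5′ to 3′ on the strand of the gene, which is the minus strand for all 6. The windows lie at chr5:115348929-115349208 (Cox6a1), chr7:30626085-30626364 (Cox6b1), chr19:7217587-7217866 (Cox8a), chr10:80406792-80407071 (Uqcr11), chr6:11907421-11907700 (Ndufa4) and chr6:126849115-126849394 (Ndufa9). Capitals mark exact matches, on either strand, to GCGCATGCG (the motif of nuclear respiratory factor 1, NRF1), CCGGAAG (the core bound by GABPA, also called nuclear respiratory factor 2) and AAGATGGCG (YY1).
Cox6a1: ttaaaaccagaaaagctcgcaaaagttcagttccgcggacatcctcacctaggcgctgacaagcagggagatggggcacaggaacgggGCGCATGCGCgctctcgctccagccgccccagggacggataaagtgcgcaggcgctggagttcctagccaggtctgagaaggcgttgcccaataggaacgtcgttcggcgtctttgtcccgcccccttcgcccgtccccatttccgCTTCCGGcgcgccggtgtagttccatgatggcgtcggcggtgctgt
Cox6b1: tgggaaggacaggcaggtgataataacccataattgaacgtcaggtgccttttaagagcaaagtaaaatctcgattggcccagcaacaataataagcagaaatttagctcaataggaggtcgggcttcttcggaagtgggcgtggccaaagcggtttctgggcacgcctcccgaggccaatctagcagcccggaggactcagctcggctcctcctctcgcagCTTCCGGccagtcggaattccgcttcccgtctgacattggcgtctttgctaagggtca
Cox8a: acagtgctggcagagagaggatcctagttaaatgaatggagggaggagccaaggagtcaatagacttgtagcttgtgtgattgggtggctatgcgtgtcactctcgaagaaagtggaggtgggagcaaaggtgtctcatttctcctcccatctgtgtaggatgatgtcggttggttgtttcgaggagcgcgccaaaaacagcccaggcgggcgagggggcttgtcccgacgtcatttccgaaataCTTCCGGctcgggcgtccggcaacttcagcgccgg
Uqcr11: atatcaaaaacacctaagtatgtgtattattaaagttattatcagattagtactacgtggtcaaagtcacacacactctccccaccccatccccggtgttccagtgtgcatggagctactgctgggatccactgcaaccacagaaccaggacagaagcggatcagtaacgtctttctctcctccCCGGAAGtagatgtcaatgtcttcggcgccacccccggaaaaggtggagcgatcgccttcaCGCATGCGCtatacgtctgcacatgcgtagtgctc
Ndufa4: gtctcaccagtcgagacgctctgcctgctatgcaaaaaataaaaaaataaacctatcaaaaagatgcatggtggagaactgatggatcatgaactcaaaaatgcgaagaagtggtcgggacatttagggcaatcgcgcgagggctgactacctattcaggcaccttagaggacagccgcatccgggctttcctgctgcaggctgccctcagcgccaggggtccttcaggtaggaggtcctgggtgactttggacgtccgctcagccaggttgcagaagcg
Ndufa9: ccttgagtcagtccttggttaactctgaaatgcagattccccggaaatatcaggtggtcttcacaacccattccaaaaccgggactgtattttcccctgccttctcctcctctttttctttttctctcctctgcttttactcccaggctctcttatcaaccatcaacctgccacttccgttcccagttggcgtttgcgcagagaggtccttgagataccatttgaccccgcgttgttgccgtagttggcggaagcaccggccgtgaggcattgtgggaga
Cox6a1 held a palindromic NRF1 match read on both strands and a GABPA match, Cox6b1 and Cox8a held a GABPA match each, Uqcr11 held both motifs, and Ndufa4 and Ndufa9 held none of these letters in the window. All but Cox6a1 and Ndufa4 lay inside a promoter peak of the ATAC table. Ndufa4 also fell in DN, as did Cox5b, whose window held none of these motifs and is not printed. The windows shown therefore do not give how often members lower in DN hold a motif.

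The 15 RNA libraries held 51641248 to 73309063 counts and 14592 to 20057 detected genes. The 4 libraries of mice 1 to 3 stood apart from the 11 of mice 4 to 6 in the genes described here, and the labels name no batch for either set. Summed hepatocyte markers (20 genes) reached 3308 CPM in FMSP6, 1659 CPM in FMSP5 and 2007 CPM in DN2 (the digit is the mouse), and the other 12 libraries had 138 to 683 CPM. Summed T cell markers (14 genes) were at 2116 to 3767 CPM in the 11 ILC1 libraries and at 634 to 939 CPM in NK cells. Gzmc had 320 to 496 CPM in DP, 21.7 to 42.0 in FMSP, 10.2 to 13.6 in DN and 1.00 to 3.92 in NK cells. The NK cell list (10 genes) summed to 425 to 885 CPM in DP and FMSP, 749 to 1541 in DN and 7974 to 10619 in NK cells.

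The mitochondrially encoded genes together took 0.356% to 2.87% of all counts. Their share in the libraries of mice 3, 4, 5 and 6 was 0.561%, 0.979%, 0.882% and 1.45% in DP and 0.356%, 1.10%, 1.07% and 2.24% in FMSP. In DN of mice 2, 4 and 6 it was 0.953%, 1.58% and 2.87%, and in NK cells of mice 1, 4, 5 and 6 it was 0.398%, 1.39%, 0.833% and 1.04%. The means were 0.967% ± 0.366 in DP, 1.19% ± 0.777 in FMSP, 1.80% ± 0.978 in DN and 0.915% ± 0.415 in NK cells (SD, n = 4, 4, 3 and 4 libraries). All 4 ranges overlapped and the spread within each population was wide beside the distances between them. DN of mouse 6 and FMSP of mouse 6 had the highest shares. They also had the highest summed red cell markers of the ILC1, at 9699 and 11942 CPM. The other ILC1 libraries had 454 to 4814 CPM and NK cells 853 to 8943 CPM, and their part in the result was not tested. In such bulk samples, fewer cells of a type and less RNA per cell cannot be told apart.

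The nuclear members took a similar share of the counts, with a narrower range. It was 1.71%, 1.10%, 1.14% and 1.18% in DP of mice 3 to 6 and 1.57%, 1.17%, 1.18% and 1.16% in FMSP of the same mice. DN of mice 2, 4 and 6 had 1.66%, 1.05% and 1.02%, and NK cells of mice 1, 4, 5 and 6 had 1.45%, 1.16%, 1.13% and 1.34%. Within mice 4 to 6, both DN libraries lay below all libraries of DP, FMSP and NK cells. Counts of the mitochondrial genes divided by those of the nuclear members gave 0.328 to 1.22 in DP, 0.227 to 1.93 in FMSP, 0.574 to 2.81 in DN and 0.274 to 1.20 in NK cells.

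**Figure D1:**
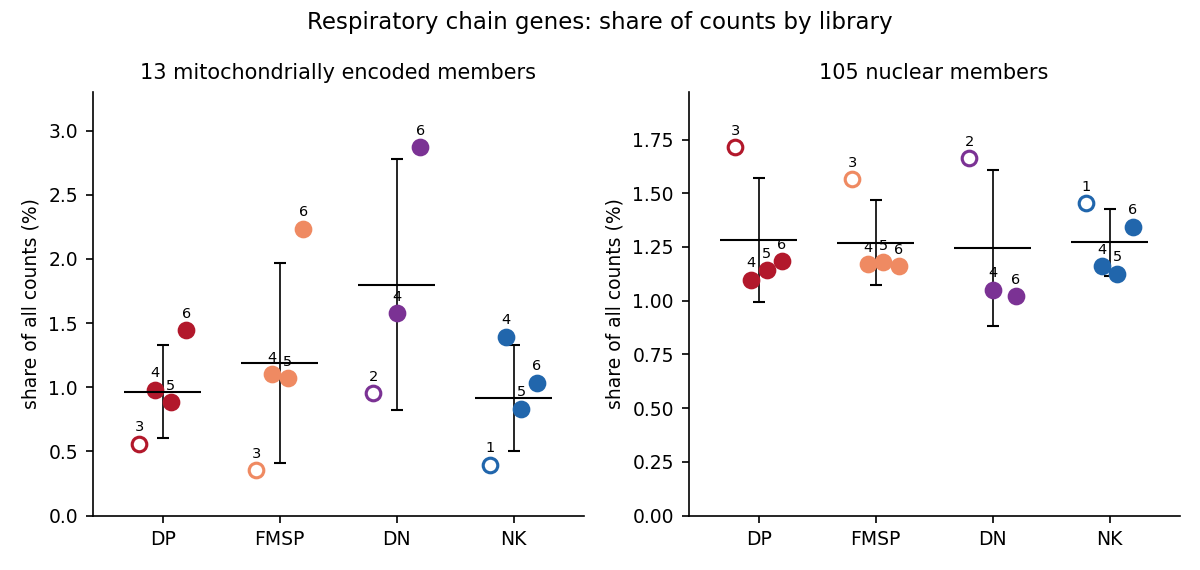
Share of all counts (%) taken by the 13 mitochondrially encoded members (left) and the 105 nuclear members (right) in each library of DP, FMSP, DN and NK cells; numbers are mice, open circles the libraries of mice 1 to 3, lines the mean and bars 1 SD. The open circles are lowest in their population on the left and highest on the right, and DN of mouse 6 has the highest mitochondrial share (2.87%).

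The libraries of mice 1 to 3 differed from those of mice 4 to 6 in opposite ways for the 2 genomes. The library of mice 1 to 3 was above every library of its population in mice 4 to 6 for 83 of the 90 nuclear members in DP, 77 in FMSP, 88 in DN and 65 in NK cells. Of all genes tested, 33.1%, 31.4%, 41.2% and 30.8% were above in the same way. In each of the 4 populations, the same library was below every library of its population for 12 of 13 mitochondrially encoded genes. Of all genes tested, 33.4% were below in this way in DP, 36.3% in FMSP, 38.8% in DN and 36.1% in NK cells. The median ratio of the earlier-numbered library to the mean of its population in mice 4 to 6 was 1.88 in DP, 1.65 in FMSP, 1.80 in DN and 1.34 in NK cells for the nuclear members. For the mitochondrially encoded members it was 0.137, 0.0704, 0.450 and 0.165.

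The profile along the mitochondrial genome differed as well. mt-Co3, a core subunit of complex IV, and mt-Atp6, the proton channel subunit of complex V, lie side by side in 1 transcript. In the 11 libraries of mice 4 to 6 the ratio of their CPM ranged from 0.904 to 1.12. It was 11.8 in DP of mouse 3, 12.9 in FMSP of mouse 3, 2.75 in DN of mouse 2 and 6.06 in NK cells of mouse 1. mt-Co1 and mt-Co3 together held 84.0%, 83.3%, 51.3% and 70.5% of the mitochondrial counts in those 4 libraries and 35.3% to 39.6% in the 11 others. Per kilobase of gene, mt-Nd5, a proton-pumping subunit of complex I, had 8.73 to 201 CPM in the 4 libraries of mice 1 to 3 and 167 to 535 CPM in the 11 of mice 4 to 6. For mt-Co3 these were 2859 to 4911 CPM and 2249 to 7106 CPM per kilobase. The ranges of the sets overlapped for mt-Co3, and they did not for mt-Nd2, mt-Co2, mt-Atp8, mt-Atp6, mt-Nd4l and mt-Nd4, where mice 1 to 3 were lower. Each of the 4 populations has 1 such library, so the comparisons below are given over all 15 libraries, with the mouse as a baseline, and within mice 4 to 6.

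**Figure D2:**
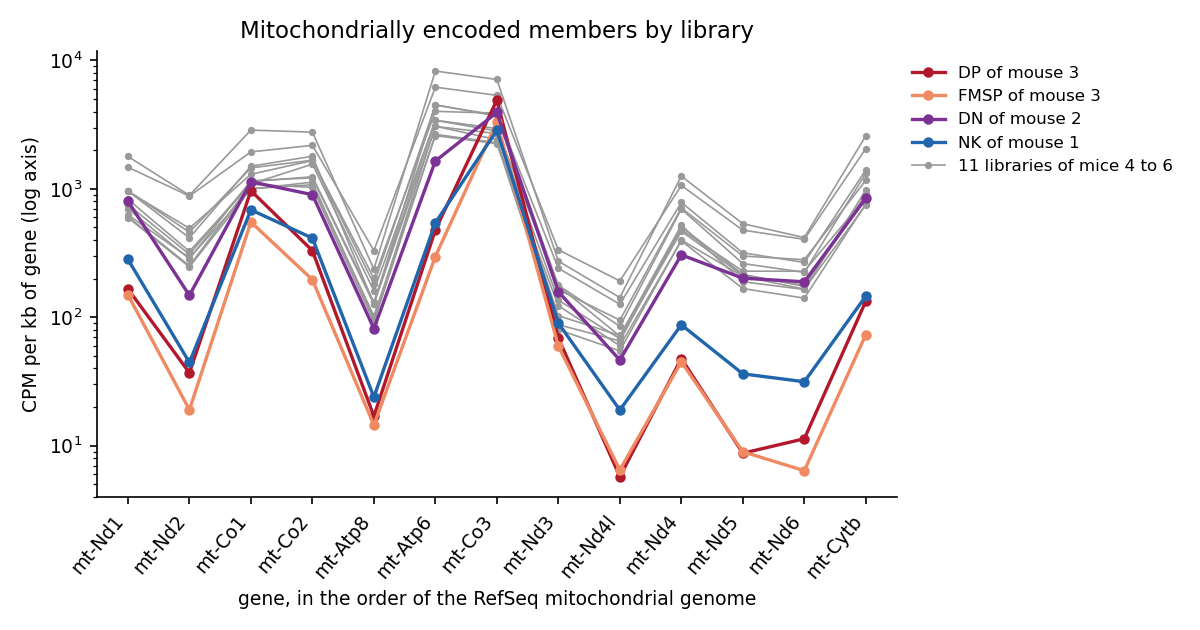
Level of each mitochondrially encoded member in TMM-scaled CPM per kilobase (log axis), in genome order, for the 4 libraries of mice 1 to 3 (coloured) and the 11 libraries of mice 4 to 6 (grey). The coloured lines reach the grey ones at mt-Co3 and lie below them at mt-Nd2, mt-Co2, mt-Atp8, mt-Atp6, mt-Nd4l and mt-Nd4.

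Compared over all 15 libraries with no term for the mouse, no respiratory chain gene passed the test in any of 7 comparisons (edgeR quasi-likelihood test, Benjamini-Hochberg adjusted p under 0.05 over 17124 genes). In the same fits 4.08% of all genes were called in DP against NK cells, 4.07% in FMSP, 2.99% in DN and 5.92% in the mean of the 3 ILC1 populations. Between ILC1 populations it was 0.0584% in DP against DN, and 0.00584% in FMSP against DN and in DP against FMSP. At an unadjusted p under 0.05 there was 1 member in DN against NK cells (mt-Co3), 1 in the mean (Ndufa4), 1 each in DP against DN and DP against FMSP (Ndufa4l2, near 0 CPM), and none in the other 3 comparisons. Of the 17124 genes, 2805 were under it in DN, 2920 in the mean, 1754 in DP against DN and 769 in DP against FMSP. In DP against NK cells, FMSP against NK cells and FMSP against DN, 2476, 2409 and 1164 were. DESeq2 called Ndufa4l2 alone, in the 3 comparisons of DP with NK cells, DN and FMSP. Of all genes it called 880 higher and 743 lower, 156 and 408, and 32 and 206 there (16544, 16833 and 20971 tested). With the mouse as a random effect, limma-voom called Ndufa4 in DP and in the mean, and Cox4i1 in the mean. Of all 17124 genes it called 744 higher and 683 lower in DP, and 769 and 1112 in the mean.

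The medians nonetheless parted by genome in DN. Over all 15 libraries the median log2 fold change of the 90 nuclear members was 0.00 in DP, -0.06 in FMSP and -0.23 in DN against NK cells, beside 0.03, 0.11 and 0.17 over all genes. Scaled to library totals, the nuclear medians were 0.06, 0.03 and -0.03, so that of FMSP changed direction, beside 0.11, 0.22 and 0.36 over all genes. For the 13 mitochondrially encoded members it was -0.10, 0.25 and 0.79. For mt-Co1, DP of mice 3 to 6 had 1494, 1539, 1675 and 2004 CPM and FMSP 852, 1759, 1787 and 2995 CPM. DN of mice 2, 4 and 6 had 1754, 2317 and 4429 CPM, and NK cells of mice 1, 4, 5 and 6 had 1060, 2249, 1548 and 1688 CPM. All 4 populations overlapped, and the log2 fold change in DN against NK cells was 0.79 (SE 0.38, adjusted p 0.317) and 0.30 without DN of mouse 6. Over 31 alternatives it ranged from 0.30 to 1.09 and was called in none. Without DN of mouse 6 the median of the 13 genes was 0.21, and without NK of mouse 1 it was 0.52. mt-Atp6 had 326, 2093, 1807 and 3057 CPM in DP and 202, 2323, 2085 and 4217 in FMSP. It had 1122, 3072 and 5629 CPM in DN and 370, 2732, 1768 and 2331 in NK cells, again with overlap. Within mice 4 to 6, both DN libraries were above all 3 NK libraries for 4 of the 13 mitochondrially encoded genes, beside 22.1% of all genes. All 3 DP libraries were below both DN libraries for 8 of 13, beside 14.2% of all genes. None of the 13 was called in these 7 comparisons with edgeR, DESeq2 or limma-voom, with or without the mouse as a block.

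With the mouse as a block, so that populations of the same animal were compared with each other, nuclear members were called and nearly all of them were lower in ILC1. In DN against NK cells 29 of 90 fell and none rose, a share of 32.2% beside 3.72% of all genes lower and 3.24% higher. In this comparison 60 of the 103 members had an unadjusted p under 0.05, beside 20% of all genes. In the mean of the ILC1 populations 28 fell and none rose, beside 7.26% of all genes lower and 5.4% higher. In DP against NK cells 2 rose and 2 fell (4.86% of all genes higher, 4.75% lower), and in FMSP 3 fell and none rose (5.31% lower, 4.51% higher). The median log2 fold change of the nuclear members was -0.15 in DP, -0.18 in FMSP and -0.49 in DN, beside 0.01, 0.04 and 0.03 over all genes, and it was below 0 for 69, 74 and 80 of the 90. For the mitochondrially encoded members it was -0.04, 0.11 and 0.53, where scaling to library totals turned DP to 0.06 and leaving out FMSP5, FMSP6 and DN2 turned FMSP to -0.34. In the pairs behind the DN value, the 13 genes summed to 13973 CPM in DN of mouse 4, against 14134 CPM in NK cells of that mouse, and to 26223 CPM in DN of mouse 6, against 10907 CPM in its NK cells, so DN was higher in mouse 6 and not in mouse 4. Within mice 4 to 6 alone, with no block, 31 members fell in DN, 30 in the mean, 4 in DP, where Ndufa9 rose, and 4 in FMSP, beside 4.53%, 7.72%, 4.51% and 4.78% of all 18125 genes tested.

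The counts rest on few libraries. The share of all genes called is not given for the fits with 1 library left out. A loss of calls among the members therefore cannot be told from a loss over all genes. DN of mouse 2 and NK of mouse 1 are the only libraries of their mice and carry no weight in the block, so the comparison is made by DN of mice 4 and 6. Without DN of mouse 6 there was no call, without DN of mouse 4 there were 6, without NK of mouse 6 there were 7, and without NK of mouse 4 there were 12 (2 higher, 10 lower). In the mean, the 28 calls were 3 without NK of mouse 6, 7 without DN of mouse 6, 11 without NK of mouse 4, 15, 16 and 15 without DP of mice 4, 5 and 6, and 17 without FMSP of mouse 6. The 4 calls in DP were 2 without DP of mouse 4, 5 or 6 and 7 without DP of mouse 3, and the 3 in FMSP were 1 without FMSP or NK of mouse 6 and 2 without FMSP or NK of mouse 4 or 5. Without FMSP5, FMSP6 and DN2, the libraries with most hepatocyte RNA by those markers, there were 16 calls in DN, 12 in the mean and 0 in FMSP, with nuclear medians of -0.51 in DN and -0.20 in FMSP. Scaled to library totals in place of TMM, 7 members were called, all lower, with a nuclear median of -0.30 and the median of all genes at 0.22 in place of 0.03. Of all 17124 genes, 796 were higher and 346 lower with library totals. DESeq2 with the block called 53, all lower, beside 8.92% of all genes lower and 6.33% higher in that fit. T cell markers moved with the comparison, with 10 of 14 higher in DN than in NK cells. Cd5 had 14.8 to 23.3 CPM and Cd6 39.8 to 51.9 CPM in DN, against 0 to 0.0748 and 0 to 3.09 CPM in NK cells, and their part in the result was not tested.

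**Figure D3:**
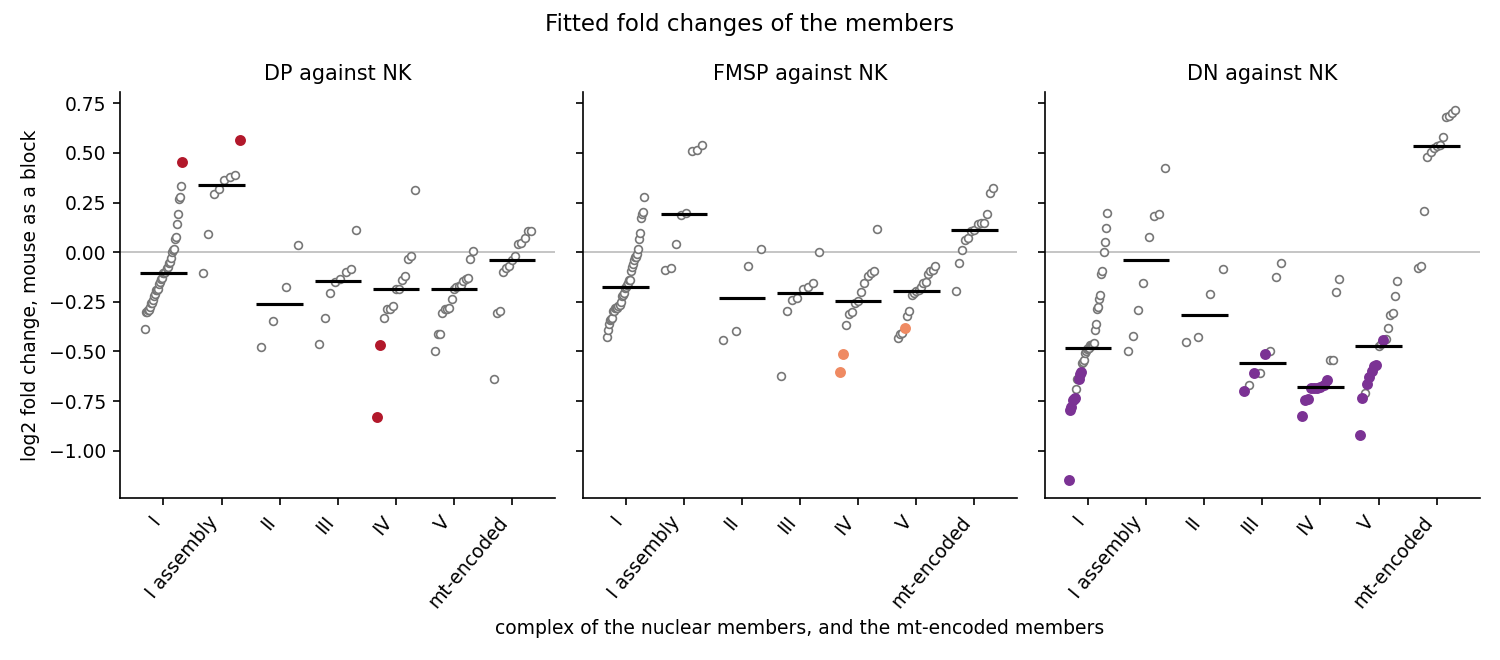
Fitted log2 fold change of each member with the mouse as a block, by complex, for DP, FMSP and DN against NK cells; filled points passed the test (adjusted p under 0.05), lines are medians, and 3 members under 1 CPM are left out. Most nuclear points lie below 0 in DN, with 29 filled, while most mitochondrially encoded points of DN lie above 0 with none filled.

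Complex IV held the largest share of lower members in DN, 9 of 16, with a median log2 fold change of -0.67. Cox4i1, a nuclear subunit that joins mt-Co1 early in assembly, had 586, 316, 347 and 328 CPM in DP of mice 3 to 6 and 602, 304, 330 and 306 in FMSP. It had 468, 272 and 289 CPM in DN of mice 2, 4 and 6, and 640, 435, 413 and 508 in NK cells of mice 1, 4, 5 and 6. Within mice 4 to 6 every ILC1 library was below every NK library, while DP and FMSP of mouse 3 and DN of mouse 2 reached the NK range. With the block Cox4i1 fell in all 3 on the log2 scale. It fell by 0.47 in DP (SE 0.09, adjusted p 0.00792), 0.51 in FMSP (SE 0.09, 0.00488) and 0.68 in DN (SE 0.10, 0.00439). Over the alternatives it was below 0 throughout. It was called in 16 of 33 in DP, 15 of 33 in FMSP and 14 of 31 in DN. Ndufa4, once counted with complex I and now placed in complex IV, had 250, 107, 128 and 143 CPM in DP, 254, 137, 159 and 164 in FMSP. It had 257, 136 and 138 CPM in DN and 292, 207, 192 and 290 in NK cells. It too lay below NK cells in every ILC1 library of mice 4 to 6. Its log2 fold change was -0.83 in DP (SE 0.13, adjusted p 0.0028), -0.61 in FMSP (SE 0.13, 0.0146) and -0.75 in DN (SE 0.15, 0.0184). Ndufa4 was called in 17 of 33 alternatives in DP, 11 of 33 in FMSP and 11 of 31 in DN.

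The 7 other complex IV subunits called lower in DN were called in neither DP nor FMSP, without a called difference between the ILC1 populations. Within mice 4 to 6, DP for Cox5b and Cox7a2 and FMSP for Cox6a1 also lay below every NK library. In the rest, DP and FMSP overlapped NK cells. Cox6b1, which lies on the intermembrane side where the enzyme dimerises, had 386, 177, 188 and 200 CPM in DP, 343, 187, 184 and 206 in FMSP. It had 287, 145 and 143 CPM in DN and 334, 222, 200 and 284 in NK cells. In mice 4 to 6 both DN libraries were the lowest, DP and FMSP overlapped NK cells, and DN fell by 0.74 (SE 0.12, adjusted p 0.00659). Cox6a1 fell by 0.67 (SE 0.12, 0.00861), Cox8a by 0.64 (SE 0.12, 0.0104) and the zinc-binding Cox5b by 0.69 (SE 0.13, 0.0137), with Cox7a2, Cox7c and Cox6c at -0.68 to -0.82. In DN, Cox6b1 and Cox6a1 were each called in 14 of 31 alternatives, Cox8a in 13, Cox5b in 12 and Cox7c in 11. Cox5a had 465.5, 222, 241 and 259 CPM in DP and 376, 220, 218 and 207 in FMSP. It had 310, 180 and 185 CPM in DN and 254, 183, 169 and 242 in NK cells. DN and NK cells overlapped, with log2 fold changes of 0.31 in DP (SE 0.11, adjusted p 0.14) and -0.13 in DN (SE 0.13, 0.649), neither called.

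**Figure D4:**
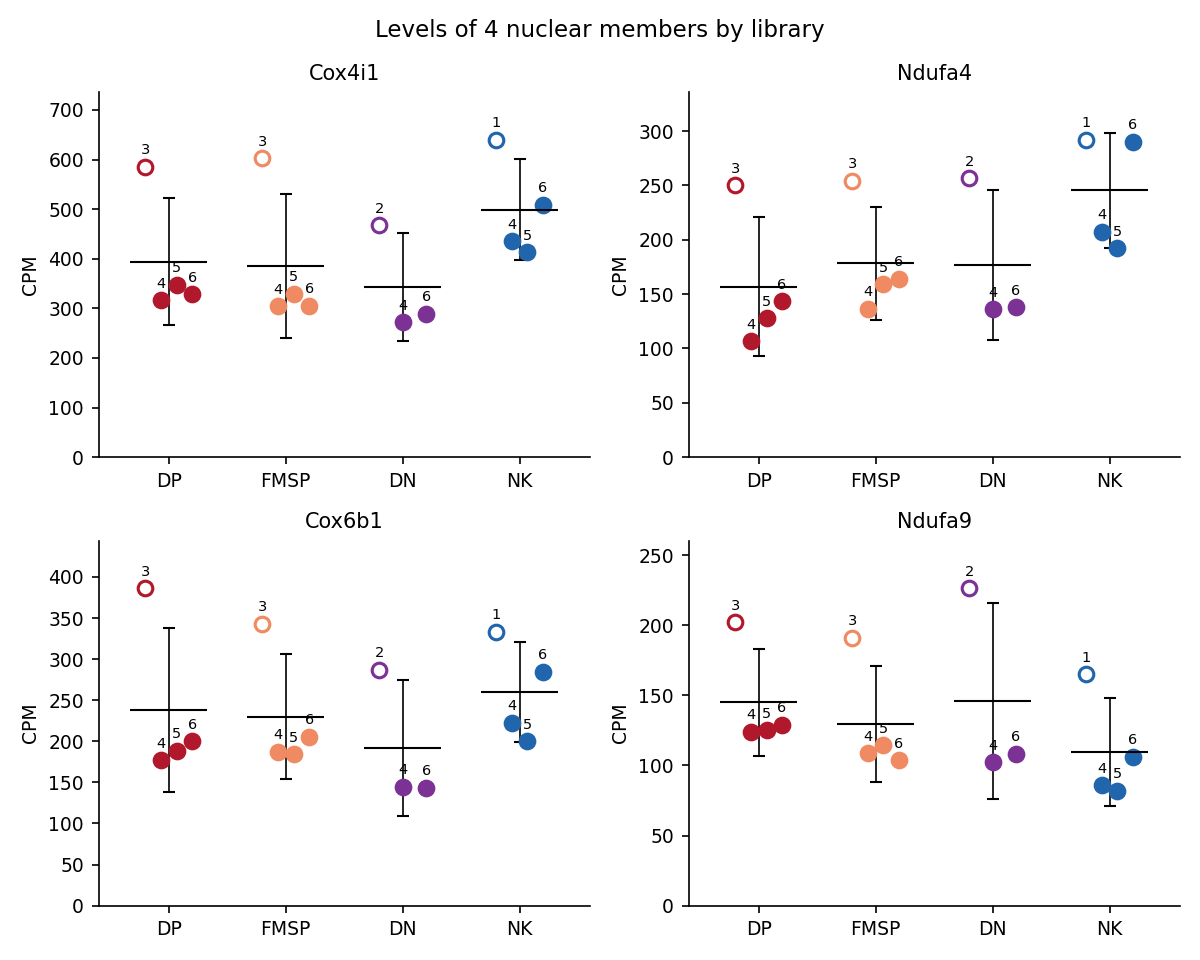
Level of Cox4i1, Ndufa4, Cox6b1 and Ndufa9 in TMM-scaled CPM in each library of DP, FMSP, DN and NK cells; numbers are mice, open circles the libraries of mice 1 to 3, lines the mean and bars 1 SD. Among the filled circles, all ILC1 libraries lie below NK cells for Cox4i1 and Ndufa4, DN lies lowest for Cox6b1, and DP lies above NK cells for Ndufa9.

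Complex I was divided. With the block, 9 of its 37 nuclear subunits fell in DN (median -0.48): Ndufa1, Ndufa3, Ndufa7, Ndufa11, Ndufb4c, Ndufb6, Ndufb7, Ndufb9 and Ndufv2. Of these, 8 are accessory subunits, of which 30 were tested with a median of -0.50, and 1, the iron-sulfur subunit Ndufv2, is among the 7 nuclear core subunits, whose median was -0.11. This division by role was chosen after the values were seen. Ndufa11, a membrane subunit, had 74.3, 73.1 and 88.1 CPM in DP of mice 4 to 6, 81.1, 78.0 and 81.8 in FMSP, 59.9 and 61.9 in DN, and 98.2, 82.2 and 113 in NK cells. It fell by 0.74 in DN (SE 0.13, adjusted p 0.00784). Both DN libraries were below all 9 others of those mice. Over 31 alternatives the log2 fold change of Ndufa11 ranged from -0.93 to -0.05 and was called in 13. Ndufb4c had the lowest fold change, -1.15 (SE 0.23, adjusted p 0.0159), but it is a copy of Ndufb4 and how reads were split between both is uncertain. Ndufa9, which sits where the matrix arm meets the membrane arm, went the other way in DP. It had 124, 125 and 129 CPM in DP of mice 4 to 6, against 85.7, 81.8 and 106 CPM in NK cells, with no overlap. It rose by 0.45 on the log2 scale (SE 0.11, adjusted p 0.0244). Over all libraries DP and NK cells overlapped for Ndufa9. Its log2 fold change ranged from 0.12 to 0.66 over 33 alternatives and was called in 11. In FMSP it had 109, 114 and 104 CPM and in DN 102 and 108 CPM, overlapping NK cells.

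The 8 assembly factors of complex I are proteins that leave the finished enzyme. They had a median of 0.34 in DP, 0.19 in FMSP and -0.04 in DN against NK cells, and none was called lower there. For Ndufaf5 every DN library lay below every NK library, with mice 1 to 3 included, without a call. Ndufaf3 rose in DP, with 45.8, 40.6 and 37.1 CPM in DP of mice 4 to 6, against 26.3, 28.4 and 29.7 CPM in NK cells. The groups did not overlap in those mice, and the log2 fold change with the block was 0.56 (SE 0.15, adjusted p 0.0487). The FMSP and DN libraries of those mice were also above every NK library for Ndufaf3, without a call with the block. Over all libraries each of DP, FMSP and DN overlapped NK cells. Over 33 alternatives the log2 fold change ranged from 0.23 to 0.84 and was called in 4.

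Of the 4 complex II subunits none was called in any single ILC1 population, and 2 fell in the mean of all 3: the membrane anchor Sdhd by 0.46 (SE 0.12, adjusted p 0.029) and the iron-sulfur subunit Sdhb by 0.39 (SE 0.09, adjusted p 0.025). Sdhb had 162, 178 and 154 CPM in DP of mice 4 to 6, 140, 167 and 161 in FMSP, 163 and 138 in DN, and 186, 205 and 231 in NK cells. Every ILC1 library of those mice was below every NK library. Over 47 alternatives of the mean, Sdhd was called in 13 and Sdhb in 18. In complex III, 3 of 8 nuclear subunits fell in DN (median -0.56): Uqcrb by 0.61, Uqcr11 by 0.70 and the hinge protein Uqcrh by 0.51 (adjusted p 0.0323, 0.0336 and 0.0395). Uqcr11 had 56.6, 59.2 and 70.2 CPM in DP of mice 4 to 6, 61.1, 59.6 and 60.0 in FMSP, 44.6 and 45.1 in DN, and 73.4, 54.9 and 82.8 in NK cells. Both DN libraries were the lowest. The direction of Uqcr11 against NK cells turned in fits with no block when DN of mouse 4 was left out (0.17). Over 31 alternatives Uqcrb and Uqcr11 were each called in 9 and Uqcrh in 6.

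In complex V, 8 of 17 nuclear subunits fell in DN (median -0.47). Atp5c1, the gamma subunit that turns within the catalytic head, had 243, 244 and 227 CPM in DP of mice 4 to 6, 263, 200 and 212 in FMSP, 201 and 203 in DN, and 283, 280 and 317 in NK cells. No ILC1 library of those mice reached the NK range. Atp5c1 fell by 0.57 in DN (SE 0.12, adjusted p 0.0224) and 0.38 in FMSP (SE 0.10, 0.0447). Over the alternatives it was called in 11 of 31 in DN and 7 of 33 in FMSP. The other 7 were the stalk subunits Atp5h and Atp5o, the rotor subunit Atp5e, and Atp5j2, Atp5k, Atp5l and Atp5md of the membrane part, with log2 fold changes of -0.44 to -0.92. Atp5b, the most counted, had 868, 927 and 883 CPM in DP of mice 4 to 6, 880, 925 and 824 in FMSP, 828 and 810 in DN, and 954, 1065 and 1084 in NK cells. Within those mice ILC1 and NK cells did not overlap, while over all libraries they did, and Atp5b fell in the mean by 0.25 (SE 0.06, adjusted p 0.0276).

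Among the ILC1 populations, no member was called in DP against DN, FMSP against DN or DP against FMSP with edgeR and the block (0.128%, 0.00584% and 0.00584% of all genes were), although 39, 31 and 0 members had an unadjusted p under 0.05, beside 10%, 7.42% and 6.09% of all genes. The comparisons share DN or DP libraries. DESeq2 with the block called 20 higher and 2 lower in DP against DN, beside 4.8% of all genes higher and 3.09% lower. It called 16 higher and none lower in FMSP against DN, beside 6.85% and 1.52%. Within mice 4 to 6, all 3 DP libraries were above both DN libraries for 67 of the 90 nuclear members, beside 13.8% of all genes, and all 3 FMSP libraries for 60, beside 11.4%. DN was below NK cells for 67, beside 20.1%, DP for 17, beside 14.2%, and FMSP for 21, beside 14.5%. DP and FMSP parted from each other for 14, 7 with DP above and 7 with DP below, beside 5.26% and 4.98% of all genes. The median log2 fold change with the block was 0.35 in DP against DN and 0.29 in FMSP against DN for the nuclear members, and -0.58 and -0.40 for the mitochondrially encoded ones.

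Among genes that work with the complexes, few were called. Of 10 electron carriers and further subunits tested, cytochrome c (Cycs) fell by 0.66 in FMSP (SE 0.14, adjusted p 0.0151) and 0.78 in DN (SE 0.17, 0.0227) and the channel gene Vdac3 fell in FMSP. Cycs had 98.3, 119 and 124 CPM in DP of mice 4 to 6, 97.5, 108 and 110 in FMSP, 85.7 and 102 in DN, and 147, 135 and 199 in NK cells, so in those mice every ILC1 library was below every NK library. DN of mouse 2 had 176 CPM, above NK cells of mice 1, 4 and 5. Of 37 assembly factors, Sdhaf1 rose in DP (0.66) and the copper chaperone Cox17 fell in DN (-0.83, adjusted p 0.0302). Of 28 genes of the mitochondrial DNA and RNA machinery, the polymerase gene Polg fell in DP (-1.18, adjusted p 0.00526) and the poly(A) polymerase gene Mtpap in DN (-0.88). Of 18 tricarboxylic acid cycle genes, Ogdh fell in DP and DN (-0.46 and -0.64), and of 13 coenzyme Q genes, Coq8a rose in DP and FMSP (1.72 and 1.61). Of 11 genes for uncoupling and reactive oxygen, Ucp2 rose in DP (0.48).

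Regulators moved in both directions. Sirt3, a deacetylase of the mitochondrial matrix, had 75.4, 60.3, 44.0 and 74.0 CPM in DP of mice 3 to 6, and 80.3, 59.6, 47.6 and 70.2 in FMSP. It had 39.4, 58.8 and 55.7 CPM in DN of mice 2, 4 and 6, and 38.4, 29.7, 24.2 and 33.8 in NK cells of mice 1, 4, 5 and 6. Every ILC1 library was above every NK library, and the log2 fold change with the block was 1.00 in DP (SE 0.13, adjusted p 9.5e-04), 1.02 in FMSP (SE 0.13, 9.1e-04) and 0.83 in DN (SE 0.15, 0.0102). Without the block Sirt3 was also called in DP (1.01, adjusted p 0.027) and FMSP (1.03, 0.0251), as was Foxo3. Of the 20 regulators, Foxo3 rose in DP and FMSP (1.12 and 1.18), Tfeb fell in all 3 (-0.69, -0.76 and -0.84), Gabpb1, the partner of GABPA, fell in DN (-0.86, adjusted p 0.01), and Nrf1 fell in the mean (-0.71, adjusted p 0.0303). Ribosomal genes were added as 2 lists after the values were seen. Of 78 genes of the mitochondrial ribosome 1, 2 and 3 were lower and none higher in DP, FMSP and DN (median -0.21 in DN), counts near or under the share of all genes. Of 79 genes of the cytosolic ribosome 15, 8 and 15 were lower and none higher (median -0.35 in DN). Of all genes 4.75%, 5.31% and 3.72% were lower in DP, FMSP and DN, so this list also fell beyond the share of all genes.

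In the promoter windows, 73 of the 90 nuclear members past the filter matched a RefSeq entry. The GABPA core was in 19 of 73 (26%), beside 9.48% of 27025 genes, the NRF1 motif in 9 (12.3%, beside 1.87%) and the YY1 motif in 2 (2.74%, beside 1.22%). Of the 24 matched members that fell in DN with the block, 12 held the GABPA core (50%) and 5 the NRF1 motif (20.8%), and of the 49 others 7 and 4 did (14.3% and 8.16%). These are counts of letters in the windows, as in the sequences of Cox6a1, Cox6b1, Cox8a and Uqcr11 above, and no binding was measured.

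Open chromatin at the members was compared at 115 peaks that the authors assigned to 71 members, 80 of them at promoters of 66 genes. In liver ILC1 against liver NK cells 17 promoter peaks had higher counts and none lower (of all 17983 promoter peaks 13.7% were higher and 4.86% lower, edgeR quasi-likelihood test, adjusted p under 0.05). The median log2 fold change of the 80 was 0.33, beside 0.19 over all promoter peaks. Promoter peaks of all genes held 57.2% and 60.4% of counts in liver ILC1, against 53.6% and 55.4% in liver NK cells. In salivary gland ILC1 against spleen NK cells 6 were higher and 10 lower, beside 15.7% and 21.5%. The median was -0.17, beside -0.10 over all promoter peaks. In the mean of both, 6 were higher and 3 lower, beside 19.9% and 13.7%. The liver count rests on single libraries: over all 115 peaks it was 23, beside 18.7% of all peaks in either direction, and it was 3 without NK replicate 1, 7 without ILC1 replicate 2 and 15 without NK replicate 2. The share of all peaks is not given for these fits with 1 library left out. Tissue and cell type cannot be told apart in the second comparison. Of the 20 members with a promoter peak and lower RNA in DN, 26 promoter peaks gave 5 higher and 0 lower in liver ILC1 (median 0.34), and the 54 peaks of the other members gave 12 higher and 0 lower (median 0.32). The ATAC-seq ILC1 carry the label of DP (GzmC+GzmcFM+) or, by the series design, a sort on CD49a and CD49b. DN cells may be absent from them or only a part of them, so RNA and chromatin need not describe the same cells. Of the 26, 4 were assigned to Atp5o from over 10000 bases away, and without them 22 peaks gave 4 higher and 0 lower (median 0.37), with 16 higher of 76 over all members.

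An intronic peak of Cox5a at chr9:57523705-57524901 (mm10) had 15.1 and 18.2 CPM in liver ILC1, against 7.18 and 8.53 CPM in liver NK cells. It had 19.6 and 18.4 CPM in salivary gland ILC1, against 8.35 and 7.03 CPM in spleen NK cells. Neither pair of groups overlapped, and the peak rose in both comparisons, by 1.10 (SE 0.26, adjusted p 3.2e-04) and 1.30 (SE 0.23, 1.6e-07). The promoter peak of Cox5a was not called in either. The promoter peak of Uqcr11 at chr10:80406071-80407467, which holds the window printed above, had 14.2 and 18.2 CPM in liver ILC1, against 6.79 and 10.9 CPM in liver NK cells (0.90, SE 0.25, adjusted p 0.00326). It had 13.1 and 13.9 CPM in salivary gland ILC1, against 18.6 and 15.7 CPM in spleen NK cells (-0.35, SE 0.21, adjusted p 0.178). An intronic peak of Ndufs4, a complex I subunit, at chr13:114304302-114305498 had 8.82 and 5.85 CPM in liver ILC1, against 31.2 and 38.6 CPM in liver NK cells. It had 101 and 80.8 CPM in salivary gland ILC1, against 58.7 and 51.1 CPM in spleen NK cells. It fell by 2.28 in liver (SE 0.23, adjusted p 9.3e-21) and rose by 0.72 in the other comparison (SE 0.18, 2.3e-04). The peak calls are by the authors' assignment to a gene: 85 of the 115 peaks overlap the span of their member, and 18 lie over 10000 bases from it.

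**Figure D5:**
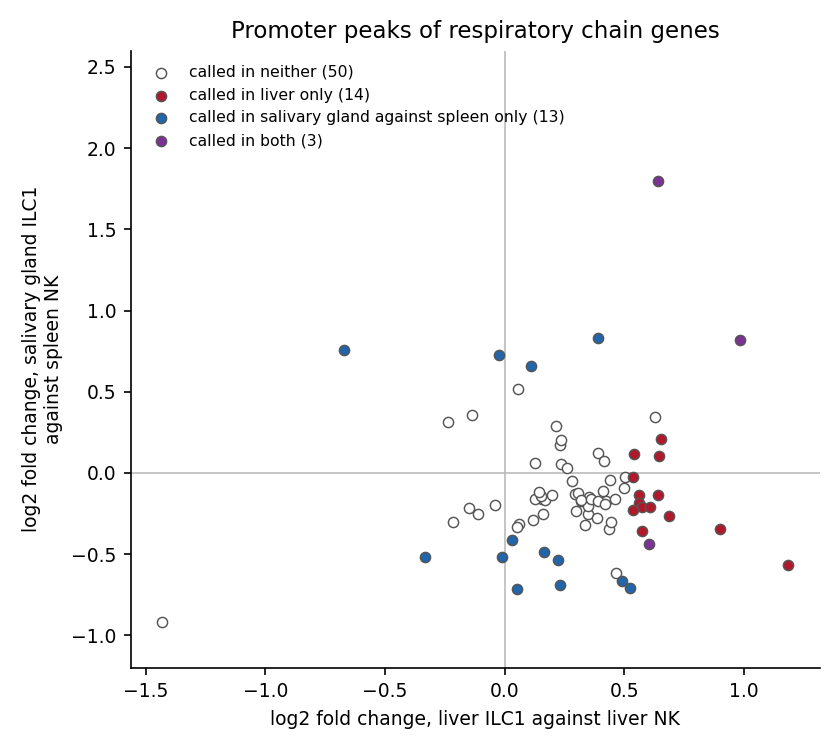
Log2 fold change of 80 promoter peaks of the members in liver ILC1 against liver NK cells (x axis) and in salivary gland ILC1 against spleen NK cells (y axis), coloured by where the peak passed the test. Of these peaks 14 were called in liver only, 13 in the other comparison only, 3 in both and 50 in neither, and the 17 called in liver all lie right of 0.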

How the data were processed

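RNA-seq covered 15 libraries and ATAC-seq 8. Per the submitters' processing notes the authors used Salmon 1.6 and mm10 for RNA, and the deposited RNA table holds estimated counts per gene as whole numbers, while the deposited ATAC table holds read counts per peak, with Bowtie2, SAMtools and MACS2 named in the same notes. The steps between reads and tables are otherwise not given in the sources used here. For RNA, 26 symbols replaced by dates held 0.265% of counts and are not members.

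Genes and peaks were filtered with filterByExpr (minimum count 10), scaled by TMM and tested with edgeR 4.0.16 (quasi-likelihood, robust; R 4.3.3) over all genes or peaks, with Benjamini-Hochberg adjusted p under 0.05. The RNA model held the 4 populations (11 residual degrees of freedom). The ATAC model held 4 groups (4 residual degrees of freedom). Libraries with the same mouse number come from 1 animal, so the mouse was also used as a block (6 residual degrees of freedom). Deviations from the population means correlated with a median r of 0.113 (0.0336 to 0.469, 16 pairs) in libraries of the same mouse and -0.0266 (-0.327 to 0.447, 68 pairs) in others. Levels are TMM-scaled CPM, per kilobase where stated. Alternatives were DESeq2 1.42.0, limma-voom (limma 3.58.1), RLE factors, library totals, other filters, mice 4 to 6 alone and each library left out. The fits with the block combined with another change, the ATAC difference of differences, the count without distant promoter peaks and the ribosomal lists were added after the values were seen.

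Genes were named by rule: the mitochondrially encoded members, called members, the nuclear member with the highest mean of each complex, paired isoforms and called genes of related lists. One item is not reported here. Members and lists were chosen with earlier results of these data known. Total counts per library were 51641248 to 73309063 for RNA and 5609587 to 26944890 for ATAC. The code was tested on simulated counts.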

Additional observations from a re-analysis of the deposited data

Results flagged for a closer look

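Of 42 sets of 4 libraries examined, 14 had 1 library far from the other 3. Chance sets apart about 1 set in 20, but the 14 come from 3 libraries and from quantities that move together, so they are not separate observations. In DP this was the library of mouse 3 throughout. Its nuclear members held 1.714% of counts (the other 3 DP libraries 1.098% to 1.184%), and its ratio of mt-Co3 to mt-Atp6 was 11.81 (0.9038 to 0.9924). Its levels were 465.5 CPM for Cox5a (222.5 to 259.4), 585.5 CPM for Cox4i1 (316 to 347.1), 202.2 CPM for Ndufa9 (124 to 129.1), 386.4 CPM for Cox6b1 (176.9 to 200.2) and 1213 CPM for Atp5b (868.4 to 927).

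In FMSP it was again the library of mouse 3, with 1.565% of counts in nuclear members (the others 1.16% to 1.18%) and a ratio of mt-Co3 to mt-Atp6 of 12.85 (0.952 to 1.013). Cox5a had 375.7 CPM (206.6 to 219.9), Cox4i1 602.5 CPM (304.3 to 329.6), Ndufa9 191.2 CPM (103.8 to 114.2) and Cox6b1 342.8 CPM (184.1 to 205.5). In NK cells the library of mouse 1 had a ratio of mt-Co3 to mt-Atp6 of 6.057 (0.991 to 1.115). The cause was not tested.

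For 4 of 6 peaks examined, the log2 difference of ILC1 and NK cells in liver was unlike that of salivary gland ILC1 and spleen NK cells, by the difference of both in 1 edgeR model. That difference was 1.245 at the promoter peak of Uqcr11 (SE 0.328, adjusted p 0.00128) and 1.042 at the promoter peak of Cox5b (SE 0.265, 8.2e-04). It was 2.21 at the exonic peak of Cox7a2 (SE 0.372, adjusted p 1.3e-07) and -3.003 at the intronic peak of Ndufs4 (SE 0.291, 7.1e-22). Tissue and cell type cannot be told apart in it.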

How the results depend on the processing

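Without a block, 0 members were called in each of the 7 RNA comparisons, and this held with any 1 library left out. Of the alternatives that changed it, DESeq2 gave 1 in DP against NK cells, 1 in DP against DN and 1 in DP against FMSP, and limma-voom with the mouse as a random effect gave 1 in DP and 2 in the mean. The mouse as a replicate block gave 4 in DP, 3 in FMSP, 29 in DN and 28 in the mean, and mice 4 to 6 alone gave 5, 4, 31 and 30. The median of the nuclear members in FMSP against DN moved to 0.66 when FMSP5, FMSP6 and DN2, high in hepatocyte markers, were left out.

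With the block, RLE factors gave 7 in DP, and library totals gave 7 in DP, 7 in DN and 5 in the mean. Of all 17124 genes, RLE factors called 842 higher and 847 lower in DP. Library totals called 1043 higher and 645 lower in DP, 796 and 346 in DN, and 1225 and 810 in the mean. DESeq2 gave 19 in DP, 18 in FMSP, 53 in DN, 22 in DP against DN, 16 in FMSP against DN and 2 in DP against FMSP. Of all genes it called 2400 higher and 2511 lower in DP (26838 tested) and 3108 and 1987 in FMSP (26287 tested). In DP against FMSP it called 792 higher and 2032 lower (27311 tested). The member counts in DP, FMSP and DP against FMSP were near or under the share of all genes. Without FMSP5, FMSP6 and DN2 there were 0 in FMSP, 16 in DN and 12 in the mean. Of 17343 genes tested there, 489 were higher and 371 lower in FMSP, 477 and 545 in DN, and 786 and 982 in the mean. Leaving out 1 library at a time, for which the share of all genes is not given, gave 2 to 7 in DP and 1 to 4 in FMSP. It gave 0 to 29 in DN and 3 to 34 in the mean. The low ends came without any of mice 4 to 6 of DP, without FMSP or NK of mouse 6, without DN of mouse 6 and without NK of mouse 6, in that order.

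Uqcr11 in DN against NK cells turned to 0.10 and Atp5h to 0.04 with library totals and no block. With no block and 1 library left out Uqcr11 ranged from -0.86 to 0.17. DESeq2 called 13 ATAC peaks in liver, where leaving out 1 library gave 3 to 31. In ATAC the labels do not say that a number marks a shared animal, and the replicate block gave 24 in liver, 32 in the salivary gland comparison and 22 in the mean. The cause of these changes was not tested. Groups of 2 to 4 libraries limit what the tests can show.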
